A study of Rattus norvegicus with 18 samples.

Results

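A set of 35 genes of the autophagy machinery was followed in primary rat glia treated with amyloid fibrils. The genes were chosen by name from what their products are known to do, and all 35 are among the 16704 gene symbols shared by the astrocyte tables (17307 symbols) and the microglia tables (17327 symbols). RNA was sequenced from astrocytes and from microglia of Sprague–Dawley rat pups (cerebral cortex, postnatal day 2), which were left untreated as control or were given Aβ42 or Aβ40 fibrils, the aggregated forms of the longer and the shorter amyloid β-protein. Fibrils were given at 25 µM for 24 h, and each of the 6 groups has 3 replicate libraries, 18 in all. No cell carries a transgene or a deletion, and the control cells of both types received no fibrils. Both cell types grew in mixed glial flasks, from which the microglia were shaken loose, so each culture can hold some cells of the other types. The sources used here do not say whether replicates came from separate litters or cultures, so the p-values measure the spread between these libraries, which may be technical.

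In autophagy, a double membrane closes around cytoplasm, aggregates or damaged organelles and fuses with a lysosome, where the content is broken down. The ULK kinase complex starts the process, a class III phosphatidylinositol 3-kinase complex marks the growing membrane with the lipid PI3P, and PI3P readers and lipid transfer proteins extend it. A pair of ubiquitin-like conjugation systems then attaches the ATG8 proteins (the LC3 and GABARAP families) to the membrane, and cargo receptors bind ubiquitin-tagged cargo on one side and ATG8 proteins on the other. The MiT/TFE transcription factors TFEB, TFE3 and MITF control genes of lysosomes and autophagy. In microglia and astrocytes this pathway is known as a route for the breakdown of engulfed or aggregated protein, including amyloid β. RNA levels do not measure the flow of cargo through the pathway, which was not assayed.

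The libraries held 3674043 to 19013919 counts on genes in astrocytes and 2271834 to 22274367 in microglia. The summed level of 8 astrocyte markers was 8570 to 10500 scaled CPM in control astrocytes and 239 to 268 in control microglia, and that of 9 microglia markers was 295 to 369 and 5380 to 6330. Scaled CPM are counts brought to a common library size, with TMM scaling factors fitted within a cell type. They are not divided by gene length, so a level is compared between libraries and never between genes. Every member passed the filter on low counts in both cell types. A pair of libraries stood apart from the replicates of their group. Microglia Aβ42 replicate 1, with 2613723 counts against 22274367 and 17687416 in the other replicates, lay nearer to the Aβ40 mean than to those replicates for 24 of the 35 members (68.6%) and for 70.4% of all 10837 tested genes. Astrocyte control replicate 2 was the highest or lowest of the 9 astrocyte libraries for 19 members (54.3%) and for 56.9% of the 11690 tested genes. The first of them thus resembled the libraries of another group in the levels of most genes and had a total in their range. Summed endothelial, neuron, fibroblast and microglia markers of every Aβ42 library lay outside the Aβ40 range, and astrocyte and oligodendrocyte lineage markers overlapped it. Whether its label as Aβ42 is right is uncertain and was not tested, and each Aβ42 mean in microglia and the comparison of the fibril types there depend on it. Microglia Aβ42 replicate 1 was kept in the group its label gives. For comparisons that contain either library, counts of members called at any fold, and calls against control that change without it, are given both ways.

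In astrocytes, the members that changed all rose, and no member differed by the test between the fibril types. Aβ42 fibrils raised 7 of 35 members (20.0%) and lowered none, against 37% of all tested genes called in either direction and 16.5% called higher. Aβ40 fibrils raised 8 members (22.9%) and lowered none, against 33.3% of all genes called and 14.9% called higher. The genes that rose with each fibril type were Optn, Uvrag, Atg2a, Wipi2, Tfe3, Pik3c3 and Nbr1. Pik3r4 was called in addition with Aβ40 and narrowly missed the threshold with Aβ42 (adjusted p = 0.0585). The comparisons share the control libraries. The median log2 fold change of the members was 0.27 with Aβ42 and 0.25 with Aβ40 fibrils, beside medians near 0 for all genes, while the median size of a change, 0.33 and 0.26, lay below the 0.38 and 0.35 of all genes. A call, at any fold, is an adjusted p-value under 0.05, where the p comes from the quasi-likelihood test of edgeR and the adjustment is that of Benjamini and Hochberg across every gene tested in the cell type. In a bulk library, fewer cells of a type and less RNA per cell cannot be told apart.

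Of the 7 calls with Aβ42 fibrils, those of Uvrag, Wipi2, Optn and Tfe3 held under all 16 alternative analyses, and of the 8 calls with Aβ40 those of Optn and Tfe3 did. Without control replicate 2, 13 members rose and 3 fell with Aβ42 (46.9% of all genes called) and 11 rose and 2 fell with Aβ40 (41.8%). All 7 and all 8 earlier calls stayed, and Rb1cc1, Ulk2 and Atg4c joined those that rose while Tfeb and Map1lc3a joined those that fell, with each fibril type. With Aβ42 the count was also 12 without control replicate 3 (40.3% of all genes called) and 4 without Aβ42 replicate 1 (30.5%). With Aβ40 it was 3 without control replicate 1 (29.2%) and 5 without Aβ42 replicate 2 (29.6%). It was 4, 5 and 2 without Aβ40 replicates 1, 2 and 3 (27.1%, 27.3% and 25%). The 9 microglia markers fell in these cultures with each fibril type, from a summed 295 to 369 scaled CPM in control to 19.1 to 24.0 with Aβ42 and 14.7 to 17.1 with Aβ40 fibrils, with no marker at 0 in all libraries of a group. In control, Aβ42 and Aβ40 cultures, 8 astrocyte markers summed to 8570 to 10500, 5580 to 5820 and 6190 to 6510, and 8 oligodendrocyte lineage markers to 1720 to 2570, 1270 to 1370 and 1340 to 1370. In the same order, 5 neuron markers summed to 125 to 168, 55.0 to 66.4 and 66.6 to 70.7, and 5 fibroblast markers to 127 to 167, 156 to 201 and 178 to 215. The 5 endothelial markers, 1 of them at 0 throughout, summed to 6.50 to 10.5 over all 9 libraries. Their part in the changes of the members was not tested.

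In microglia, members changed in both directions with each fibril type. With Aβ42 fibrils 9 of 35 members rose and 5 fell (40.0%, against 53.7% of all tested genes called, 27.1% higher and 26.6% lower). With Aβ40 fibrils 2 rose and 8 fell (28.6%, against 41% of all genes, 19.6% higher and 21.4% lower). Sqstm1 and Optn had the largest increases with Aβ42, and Optn rose most and Tfeb fell most with Aβ40. Wipi2 and Optn rose and Ulk2, Atg4c, Atg7 and Map1lc3b fell with each fibril type, which share their control libraries. The median log2 fold change of the members was -0.02 and -0.11, beside medians of 0.01 for all genes with each fibril type, and the median size of a change was 0.27 and 0.21, below the 0.46 and 0.37 of all genes. A change of 2-fold or more was called for 2 members with Aβ42 (21.3% of all genes) and for 2 with Aβ40 (17.6%), compared with 1 member in each astrocyte comparison (19.8% and 17.8%). At 5-fold or more no member was called in astrocytes (6.27% and 5.42% of all genes with Aβ42 and Aβ40) or in microglia (6.26% and 5.83%).

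The calls that held under all 16 alternatives were those of Ulk2, Atg101, Wipi2, Atg4c, Atg7, Sqstm1 and Optn with Aβ42, and those of Ulk1, Ulk2, Wipi2, Atg4c, Atg7, Map1lc3b, Optn and Tfeb with Aβ40. Without Aβ42 replicate 1, 11 members rose and 9 fell with Aβ42 (70.3% of all genes called), all 14 earlier calls among them. The count was 8 without Aβ42 replicate 2 or 3 (42.7% and 42.9%). With Aβ40, leaving out Aβ42 replicate 1, which enters only through the spread, filter and scaling that all groups share, gave 16 calls (5 higher and 11 lower, with 54% of all genes called). In these cultures 7 of 9 microglia markers fell and 1 rose with Aβ42, and 8 fell and 1 rose with Aβ40. Their sum went from 5380 to 6330 scaled CPM in control to 1370 to 1740 and 1750 to 1940. Astrocyte markers summed to 239 to 268, 227 to 265 and 219 to 244, and oligodendrocyte lineage markers to 1960 to 2160, 2180 to 2830 and 2200 to 2660, in control, Aβ42 and Aβ40 cultures. In the same order, the endothelial markers, 1 of them at 0 throughout, summed to 183 to 189, 41.6 to 63.9 and 88.9 to 114, the fibroblast markers to 46.3 to 58.7, 134 to 154 and 119 to 123, and the neuron markers to 247 to 262, 261 to 320 and 328 to 354. Their part in the results for the members was not tested.

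**Figure D1:**
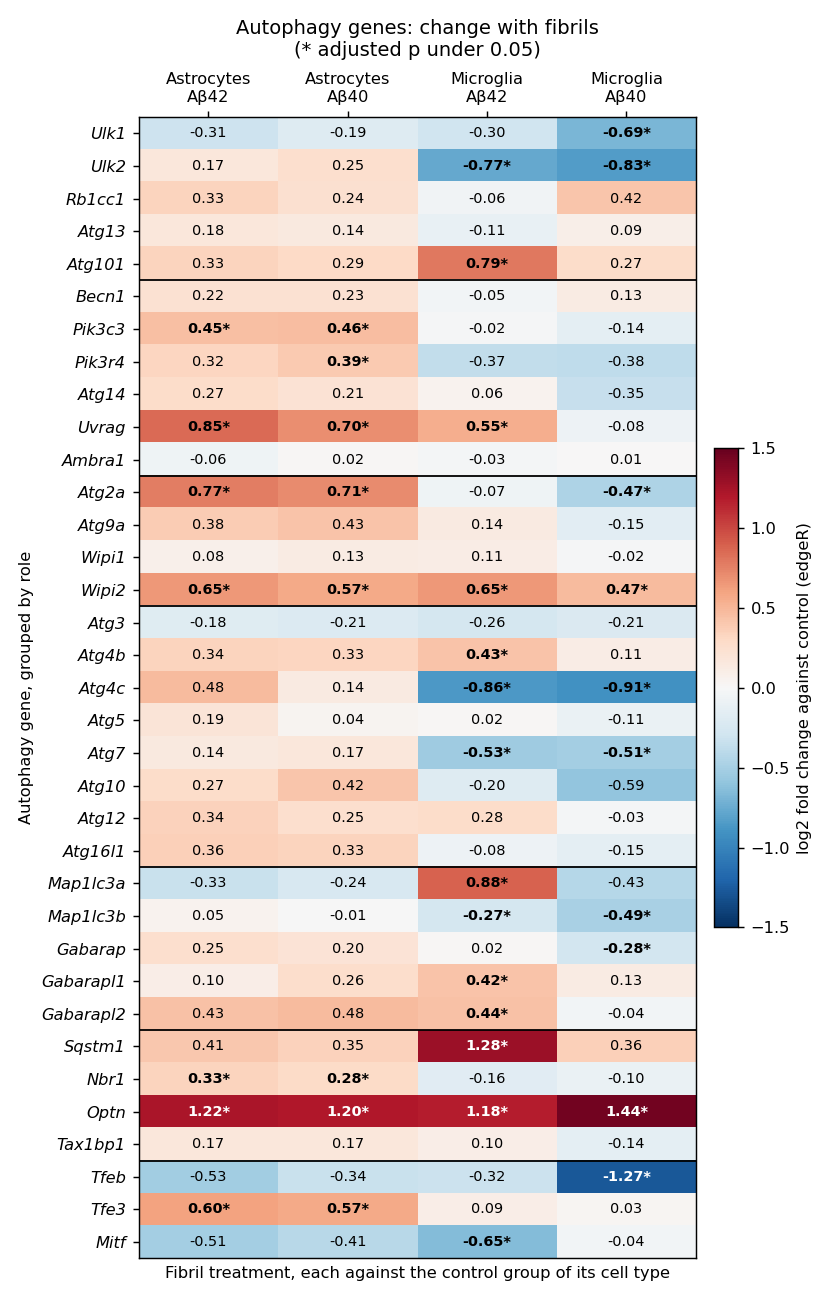
Log2 fold change against the untreated group of the same cell type for each of the 35 autophagy genes (rows, grouped by role with black lines between groups) in the 4 fibril comparisons (columns), with an asterisk where the adjusted p-value was under 0.05. The Optn row is dark red in every column, from 1.18 to 1.44, while Ulk2, Atg4c and Atg7 are blue in the microglia columns and not in the astrocyte columns.

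The cargo receptor optineurin, encoded by Optn, delivers damaged mitochondria, bacteria and protein aggregates to the autophagosome. With all libraries included, it was the single member that rose by 2-fold or more in all 4 fibril comparisons. In control astrocytes Optn stood at 72.9, 114 and 70.3 scaled CPM in replicates 1, 2 and 3, at 209, 191 and 198 with Aβ42 and at 192, 208 and 187 with Aβ40 fibrils. All 6 treated libraries lay above the 3 controls, of which replicate 2 was the highest. The fold change was 2.34 with Aβ42 (log2 1.22 ± 0.18 (SE), adjusted p = 0.000251) and 2.29 with Aβ40 (log2 1.20 ± 0.18, adjusted p = 0.000326), and without control replicate 2 the log2 values were 1.49 and 1.46.

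In microglia, Optn stood at 100, 99.8 and 91.1 scaled CPM in control, 304, 186 and 176 with Aβ42 and 248, 241 and 304 with Aβ40 fibrils. Every treated library was above every control, and Aβ42 replicate 1 was far above the other Aβ42 libraries and within the range of the Aβ40 libraries. The fold change was 2.26 with Aβ42 (log2 1.18 ± 0.19, adjusted p = 0.000231) and 2.72 with Aβ40 (log2 1.44 ± 0.19, adjusted p = 6.16e-05). Without Aβ42 replicate 1, the Aβ42 value was 0.90 on the log2 scale, below 2-fold.

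The receptor p62, encoded by Sqstm1, gathers ubiquitin-tagged protein into bodies that are taken up by autophagosomes and is itself degraded there. In microglia Sqstm1 stood at 375, 397 and 376 scaled CPM in control, 675, 1070 and 1040 with Aβ42 and 484, 533 and 455 with Aβ40 fibrils. The groups were fully separated, in the order control, Aβ40 and Aβ42, with Aβ42 replicate 1 between the Aβ40 libraries and the other Aβ42 libraries. Sqstm1 rose 2.43-fold with Aβ42 (log2 1.28 ± 0.16, adjusted p = 2.52e-05; 1.46 without Aβ42 replicate 1). With Aβ40 the log2 fold change was 0.36 ± 0.15 (adjusted p = 0.0841), which did not pass.

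In astrocytes Sqstm1 stood at 538, 376 and 562 scaled CPM in control, 668, 676 and 615 with Aβ42 and 604, 624 and 654 with Aβ40 fibrils. All treated libraries were above all controls, and control replicate 2 was the lowest. The log2 fold change of 0.41 ± 0.15 with Aβ42 missed the threshold (adjusted p = 0.0515), as did 0.35 ± 0.15 with Aβ40 (adjusted p = 0.0946). Without control replicate 2 the values were 0.26 (adjusted p = 0.0359) and 0.20 (adjusted p = 0.102).

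The promoters of Optn, which rose in each of the 4 comparisons, and of Sqstm1, which differed between the fibril types in microglia, are shown to place the letters searched for in them. The 200 bases before the annotated start were taken from RefSeq (build GRCr8), which is newer than the rn5 assembly that the deposited counts rest on. Optn lies on the plus strand, at chr17:78118669-78118868, and Sqstm1 on the minus strand, at chr10:35037751-35037950. Capitals mark letters like those of a κB site (GGGA, any 4 bases, CC), which Optn holds on both strands in overlapping copies, and in Sqstm1 no searched letters were found.
Optn: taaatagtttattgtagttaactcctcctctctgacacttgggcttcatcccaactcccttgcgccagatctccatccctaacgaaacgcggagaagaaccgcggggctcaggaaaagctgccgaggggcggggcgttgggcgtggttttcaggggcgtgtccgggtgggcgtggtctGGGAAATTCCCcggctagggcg
Sqstm1: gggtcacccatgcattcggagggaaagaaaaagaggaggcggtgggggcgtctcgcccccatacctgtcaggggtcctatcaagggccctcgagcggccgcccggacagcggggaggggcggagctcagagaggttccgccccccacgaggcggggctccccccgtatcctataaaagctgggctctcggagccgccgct

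Promoters of 31 of the 35 members were found (not those of Rb1cc1, Becn1, Atg9a and Map1lc3a). Searches covered the 250 bases before the start on both strands, with letters chosen when results of these data were known. The κB-like letters were present in 4 of the 31 (12.9%: Atg3, Gabarapl1, Optn and Mitf) and in 16.8% of all 27457 promoters. The E-box CACGTG, the core of the sites that MiT/TFE factors bind, was present in 2 (6.45%: Atg3 and Atg5) and in 5.795% of all promoters. TGACNNNGC, the core of the antioxidant response element, was present in 3 (9.68%: Ulk2, Atg10 and Gabarap) and in 10.2% of all. The shares in members were thus close to those in all promoters. A match is a string of letters and no evidence of binding.

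The receptors NBR1 and TAX1BP1 were more even. Nbr1, whose product works with p62 on ubiquitin-tagged cargo, stood at 336, 372 and 368 scaled CPM in control astrocytes, 445, 447 and 464 with Aβ42 and 439, 436 and 436 with Aβ40 fibrils. The treated libraries lay close together and above all controls, and the log2 fold change was 0.33 ± 0.10 with Aβ42 (adjusted p = 0.0217) and 0.28 ± 0.10 with Aβ40 (adjusted p = 0.0470). The call with Aβ40 was lost in 12 of the 16 alternatives and that with Aβ42 in 6. In microglia the Nbr1 levels were 402 to 413 in control, 361 to 367 with Aβ42 and 373 to 386 with Aβ40, and the log2 fold changes of -0.16 and -0.10 did not pass (adjusted p = 0.117 and 0.357), although without Aβ42 replicate 1 the value of -0.17 with Aβ42 did (adjusted p = 0.0486). Tax1bp1, for a receptor of aggregates and damaged organelles, was called in none of the 4 comparisons (log2 fold changes from -0.14 to 0.17). Without control replicate 2 it was called higher in astrocytes with Aβ42 (0.35, adjusted p = 0.0488).

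**Figure D2:**
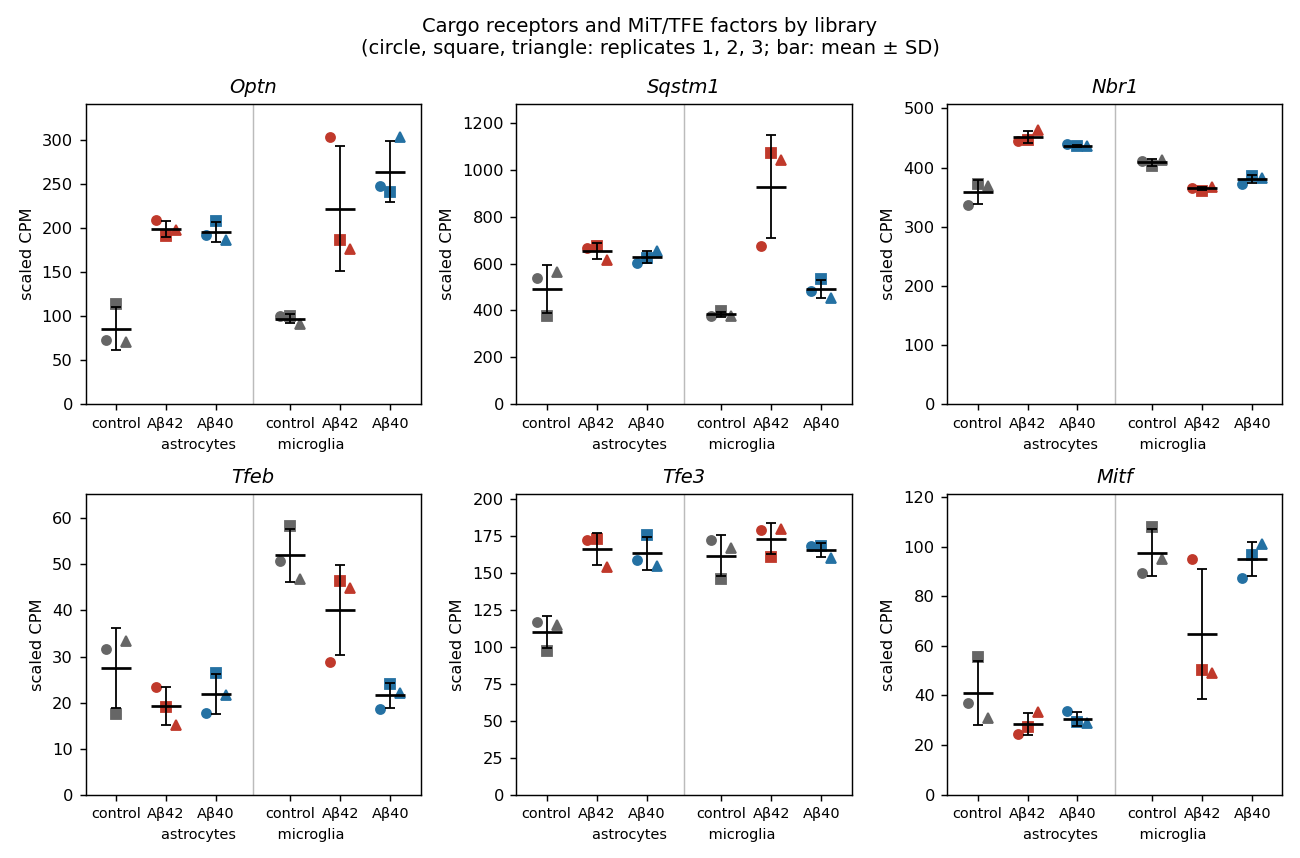
Scaled CPM (vertical axes, from 0) of 3 cargo receptor genes and the 3 MiT/TFE factor genes in each of the 18 libraries, by cell type and treatment, where circles, squares and triangles are replicates 1, 2 and 3 and bars are the mean ± SD of 3 libraries. In the Optn panel all treated libraries (176 to 304) lie above all controls (70.3 to 114), and in the Sqstm1, Tfeb and Mitf panels the circle of microglia Aβ42 replicate 1 lies apart from its group.

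The MiT/TFE factors moved in different directions. Tfe3 rose in astrocytes and not in microglia, Tfeb fell in microglia with Aβ40, and Mitf fell in microglia with Aβ42. Tfe3 stood at 117, 97.4 and 115 scaled CPM in control astrocytes, 172, 173 and 154 with Aβ42 and 159, 176 and 155 with Aβ40 fibrils. All treated libraries were above all controls, with log2 fold changes of 0.60 ± 0.12 (adjusted p = 0.00267) and 0.57 ± 0.12 (adjusted p = 0.00383). In microglia Tfe3 stood at 172, 146 and 167 in control, 179, 161 and 180 with Aβ42 and 168, 168 and 160 with Aβ40, and these overlapping groups gave log2 fold changes of 0.09 and 0.03 (adjusted p = 0.450 and 0.849).

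Tfeb, whose product is regarded as the main activator of lysosomal genes, stood at 50.8, 58.3 and 46.8 scaled CPM in control microglia, 28.8, 46.5 and 44.9 with Aβ42 and 18.6, 24.1 and 22.0 with Aβ40 fibrils. The Aβ40 libraries were all below the other groups, and Aβ42 replicate 1 lay between them and the other Aβ42 libraries. Tfeb fell to 0.416 of its control level with Aβ40 (log2 -1.27 ± 0.19, adjusted p = 0.000166), while the log2 fold change with Aβ42 was -0.32 ± 0.17 (adjusted p = 0.121; -0.18 without Aβ42 replicate 1). In astrocytes Tfeb stood at 31.7, 17.5 and 33.3 in control, 23.4, 19.0 and 15.2 with Aβ42 and 17.7, 26.4 and 21.7 with Aβ40. Control replicate 2 lay within the treated libraries and the other controls above them. The log2 fold changes of -0.53 and -0.34 did not pass (adjusted p = 0.138 and 0.345), and without control replicate 2 they were -0.74 (adjusted p = 0.00577) and -0.56 (adjusted p = 0.0275).

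Mitf, best known from pigment cells and also active in myeloid cells, stood at 89.5, 108 and 95.1 scaled CPM in control microglia, 95.1, 50.3 and 49.0 with Aβ42 and 87.5, 96.7 and 101 with Aβ40 fibrils. Aβ42 replicates 2 and 3 lay far below all other microglia libraries, and Aβ42 replicate 1 lay within the controls, as did the Aβ40 libraries but for replicate 1, just below them. The log2 fold change with Aβ42 was -0.65 ± 0.21 (adjusted p = 0.0201), or -0.97 without Aβ42 replicate 1, and with Aβ40 it was -0.04 (adjusted p = 0.902). In astrocytes Mitf stood at 37.0, 55.3 and 30.7 in control, 24.6, 27.4 and 33.5 with Aβ42 and 33.8, 29.2 and 28.7 with Aβ40. These overlapping groups gave log2 fold changes of -0.51 and -0.41 that did not pass (adjusted p = 0.0857 and 0.167).

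The 5 ATG8 genes, whose products coat the autophagosome membrane and are its standard markers, showed no call in astrocytes and calls in both directions in microglia. With Aβ42 fibrils 3 rose (Map1lc3a, Gabarapl1 and Gabarapl2) and 1 fell (Map1lc3b) in microglia. With Aβ40 fibrils none rose and 2 fell (Map1lc3b and Gabarap). The LC3 genes Map1lc3a and Map1lc3b were called in opposite directions with Aβ42. Of the 16 alternatives, 6 lost this call of Map1lc3a and 7 that of Map1lc3b. The calls of Gabarapl1 and Gabarapl2 with Aβ42 were lost in 1 and 4, and that of Gabarap with Aβ40 in 4.

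Map1lc3a stood at 40.4, 29.9 and 44.6 scaled CPM in control microglia, 31.2, 83.1 and 89.6 with Aβ42 and 30.1, 33.1 and 20.7 with Aβ40 fibrils. Aβ42 replicates 2 and 3 were far above all other microglia libraries and replicate 1 was within the controls. The log2 fold change with Aβ42 was 0.88 ± 0.29 (adjusted p = 0.0238), or 1.15 without Aβ42 replicate 1, and with Aβ40 it was -0.43 (adjusted p = 0.325). Map1lc3b stood at 319, 309 and 350 in control, 286, 271 and 258 with Aβ42 and 221, 241 and 233 with Aβ40. Its groups did not overlap, and it fell by 0.27 ± 0.10 on the log2 scale with Aβ42 (adjusted p = 0.0337) and by 0.49 ± 0.10 with Aβ40 (adjusted p = 0.00139).

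Of the GABARAP family, which acts at closure and at fusion with the lysosome, Gabarap stood at 643, 611 and 690 scaled CPM in control microglia, 670, 633 and 673 with Aβ42 and 522, 533 and 547 with Aβ40 fibrils. The Aβ40 libraries alone lay below the controls, and the fall of 0.28 ± 0.09 on the log2 scale was called (adjusted p = 0.0276), against 0.02 with Aβ42 (adjusted p = 0.845). Gabarapl1 stood at 101, 92.6 and 109 in control, 111, 152 and 139 with Aβ42 and 107, 111 and 113 with Aβ40. It rose with Aβ42 (log2 0.42 ± 0.12, adjusted p = 0.0118), with Aβ42 replicate 1 just above the highest control, and its value with Aβ40 was 0.13 (adjusted p = 0.451). Gabarapl2 stood at 60.6, 74.5 and 64.1 in control, 69.9, 101 and 94.8 with Aβ42 and 62.7, 70.6 and 58.8 with Aβ40. It rose with Aβ42 (log2 0.44 ± 0.14, adjusted p = 0.0207), although replicate 1 overlapped the controls, and its value with Aβ40 was -0.04 (adjusted p = 0.848).

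In astrocytes, control replicate 2 was the lowest control library for all 5 ATG8 genes. Map1lc3a stood at 171, 49.8 and 161 scaled CPM in control, 119, 113 and 70.7 with Aβ42 and 81.9, 123 and 118 with Aβ40 fibrils, and the log2 fold changes of -0.33 and -0.24 did not pass (adjusted p = 0.535 and 0.674). Without control replicate 2, in which it was lowest of all, Map1lc3a was called lower with each fibril type (log2 -0.70 and -0.61, adjusted p = 0.0123 and 0.0270). Gabarapl2 stood at 101, 66.0 and 111 in control, 114, 129 and 135 with Aβ42 and 135, 120 and 133 with Aβ40. All its treated libraries were above all controls, yet the log2 fold changes of 0.43 and 0.48 did not pass (adjusted p = 0.0818 and 0.0637).

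The other 3 ATG8 genes overlapped between treated and control astrocytes. Map1lc3b stood at 527, 373 and 445 scaled CPM in control, 470, 487 and 434 with Aβ42 and 433, 465 and 439 with Aβ40 fibrils (log2 0.05 and -0.01). Gabarap stood at 390, 227 and 375 in control, 390, 407 and 383 with Aβ42 and 362, 403 and 379 with Aβ40 (log2 0.25 and 0.20). Gabarapl1 stood at 196, 152 and 209 in control, 223, 188 and 188 with Aβ42 and 188, 252 and 230 with Aβ40 (log2 0.10 and 0.26). None passed (lowest adjusted p = 0.236).

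**Figure D3:**
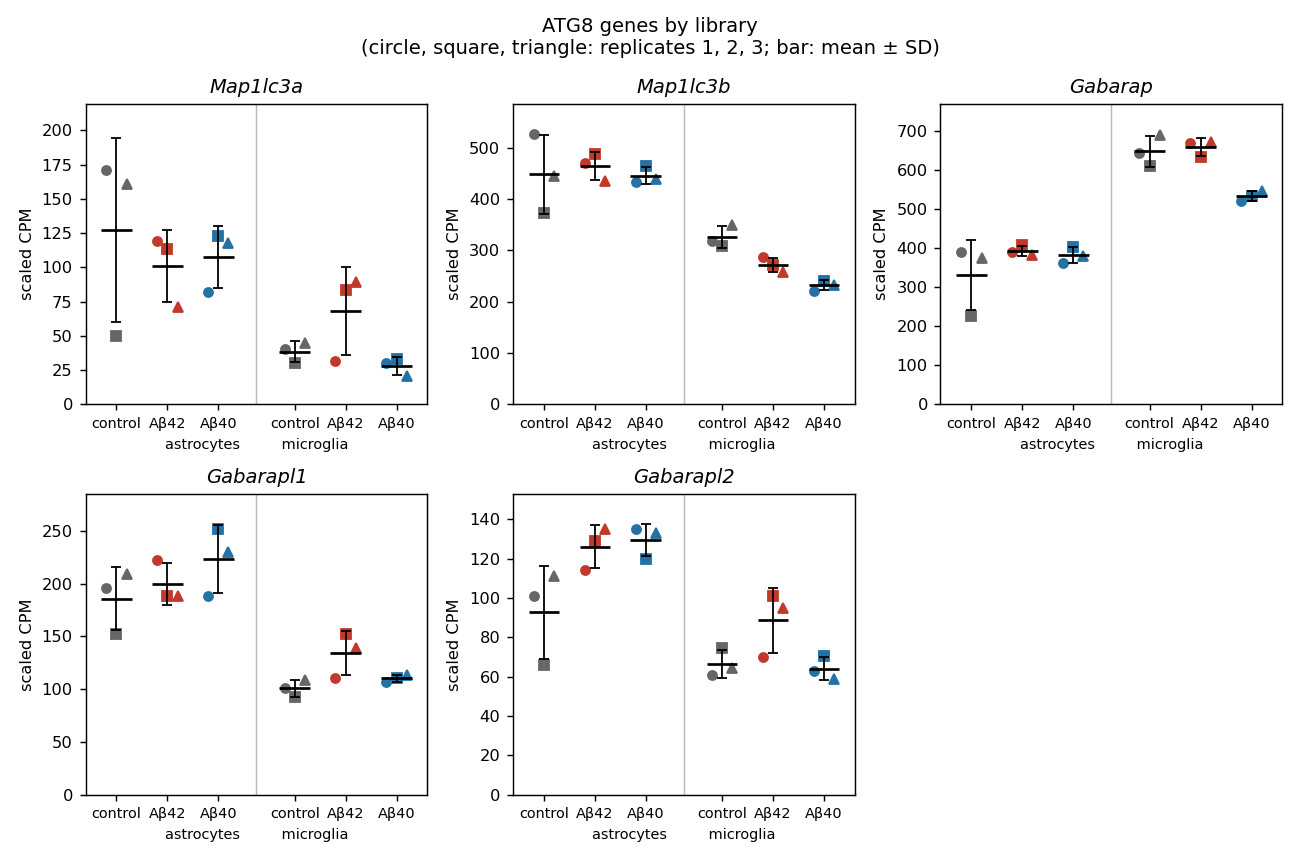
Scaled CPM (vertical axes, from 0) of the 5 ATG8 genes in each of the 18 libraries, by cell type and treatment, where circles, squares and triangles are replicates 1, 2 and 3 and bars are the mean ± SD of 3 libraries. In microglia Map1lc3a is high in Aβ42 replicates 2 and 3 (83.1 and 89.6) and near the controls in replicate 1 (31.2), while in astrocytes control replicate 2 (grey square) is the lowest control in every panel.

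Of the 5 genes of the ULK complex, the kinase genes were lower in treated microglia and none was called in astrocytes. Ulk2 stood at 113, 125 and 118 scaled CPM in control microglia, 71.1, 72.3 and 66.4 with Aβ42 and 72.1, 63.7 and 63.8 with Aβ40 fibrils. All treated libraries lay below all controls, Aβ42 replicate 1 with its group, and Ulk2 fell by 0.77 ± 0.10 (adjusted p = 4.28e-05) and 0.83 ± 0.10 (adjusted p = 3.52e-05) on the log2 scale. Ulk1, for the other kinase, fell by 0.69 ± 0.17 with Aβ40 (adjusted p = 0.00693) and had a log2 fold change of -0.30 with Aβ42, which did not pass. Atg101, for a stabilizing subunit, rose with Aβ42 (log2 0.79 ± 0.15, adjusted p = 0.000678), from 32.0 to 35.8 scaled CPM in control to 43.5, 64.4 and 65.7. The scaffold gene Rb1cc1 and the adaptor gene Atg13 were not called in any of the 4 comparisons. Without the libraries that stood apart, Rb1cc1 was called lower in microglia with Aβ42 (log2 -0.35 in place of -0.06, adjusted p = 0.00311) and higher in astrocytes with each fibril type (0.80 and 0.70 in place of 0.33 and 0.24, adjusted p = 0.00113 and 0.00298). In astrocytes the log2 fold changes of the 5 ranged from -0.31 (Ulk1) to 0.33 (Atg101) with Aβ42 and from -0.19 (Ulk1) to 0.29 (Atg101) with Aβ40. Without control replicate 2, Ulk2 was called higher there (0.36 and 0.45) and Ulk1 lower with Aβ42 (-0.39).

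In the class III PI3-kinase complex, the clearest change was that of Uvrag, for a subunit of the form that acts in maturation and endosome traffic. In astrocytes Uvrag stood at 4.45, 9.09 and 7.73 scaled CPM in control (16 to 110 counts), 12.1, 14.2 and 13.1 with Aβ42 and between 10.9 and 12.5 with Aβ40 fibrils. All treated libraries were above all controls, with log2 fold changes of 0.85 ± 0.21 (adjusted p = 0.00876) and 0.70 ± 0.21 (adjusted p = 0.0253). In microglia Uvrag stood at 19.2, 17.4 and 21.8 in control, 19.6, 30.2 and 32.1 with Aβ42 and 22.2, 16.5 and 16.1 with Aβ40, and rose with Aβ42 (log2 0.55 ± 0.18, adjusted p = 0.0231). Aβ42 replicate 1 lay within the controls, and the value with Aβ40 was -0.08. Pik3c3, for the lipid kinase itself, rose in astrocytes with each fibril type (log2 0.45 and 0.46, adjusted p = 0.0428 and 0.0434). Each of these calls was lost in 9 of 16 alternatives. Pik3r4, for its regulatory subunit, rose with Aβ40 (log2 0.39 ± 0.12, adjusted p = 0.0272), a call lost in 7 of 16 alternatives. With Aβ42 the astrocyte value of Pik3r4 was 0.32 ± 0.12, which did not pass (adjusted p = 0.0585). In microglia its value with Aβ42 was -0.37 (adjusted p = 0.0592), and -0.23 without Aβ42 replicate 1, which was called (adjusted p = 0.0313). Becn1, for the Beclin 1 scaffold, Atg14 and Ambra1 were called in none of the 4 comparisons, and the log2 fold changes of Ambra1 ran from -0.06 to 0.02.

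Wipi2, whose product reads PI3P and recruits the conjugation machinery, rose in all 4 comparisons, by less than 2-fold. In astrocytes it stood at 40.1, 36.1 and 57.7 scaled CPM in control, 73.0, 70.5 and 69.1 with Aβ42 and 60.9, 72.7 and 67.2 with Aβ40 fibrils (log2 0.65 and 0.57, adjusted p = 0.0125 and 0.0264). In microglia it stood at 37.9, 35.3 and 37.9 in control, 50.7, 60.2 and 61.9 with Aβ42 and 49.4, 52.5 and 52.8 with Aβ40 (log2 0.65 and 0.47, adjusted p = 0.000387 and 0.00587). Treated and control libraries did not overlap in either cell type.

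Atg2a, for a lipid transfer protein that feeds the growing membrane, was the single member called in opposite directions in the cell types when all libraries were included. In astrocytes it stood at 70.1, 47.6 and 82.1 scaled CPM in control, 136, 114 and 93.4 with Aβ42 and 93.8, 129 and 106 with Aβ40 fibrils, and rose with each (log2 0.77 and 0.71, adjusted p = 0.0155 and 0.0252). In microglia it stood at 58.6, 65.6 and 52.6 in control, 40.3, 61.2 and 62.8 with Aβ42 and 38.1, 42.9 and 47.8 with Aβ40, and fell with Aβ40 (log2 -0.47 ± 0.17, adjusted p = 0.0435). The fall was lost in 7 of 16 alternatives, and with Aβ42 the log2 fold change was -0.07. Wipi1 and Atg9a, for a second PI3P reader and the membrane-spanning scramblase, were not called in the 4 comparisons (log2 fold changes from -0.02 to 0.13 and from -0.15 to 0.43). Without microglia Aβ42 replicate 1, Atg9a was called higher with Aβ42 (0.27 in place of 0.14, adjusted p = 0.0124). Leaving out a library that stood apart gave further opposite calls in the cell types. Without astrocyte control replicate 2 these were those of Ulk2, Atg4c and Map1lc3a, and without microglia Aβ42 replicate 1 those of Nbr1 and Pik3r4. The Pik3r4 calls were with different fibril types, higher in astrocytes with Aβ40 and lower in microglia with Aβ42. For Rb1cc1, opposite calls needed both libraries to be left out, each from the fit of its own cell type.

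Among the 8 conjugation genes, none was called in astrocytes, where log2 fold changes ran from -0.18 (Atg3) to 0.48 (Atg4c) with Aβ42 and from -0.21 (Atg3) to 0.42 (Atg10) with Aβ40 fibrils. In microglia Atg4c and Atg7 fell with each fibril type and Atg4b rose with Aβ42. Atg4c, for a protease that trims and recycles ATG8 proteins, stood at 75.3, 76.2 and 78.6 scaled CPM in control microglia, 53.5, 38.6 and 38.2 with Aβ42 and 41.5, 35.7 and 46.8 with Aβ40. All treated libraries were below all controls (log2 -0.86 ± 0.14 and -0.91 ± 0.15, adjusted p = 0.000301 and 0.000358). Atg7, for the enzyme that activates both ubiquitin-like systems, stood at 57.2, 56.0 and 62.5 in control, 41.9, 40.4 and 39.4 with Aβ42 and 40.3, 42.9 and 39.9 with Aβ40. The treated libraries lay close together below the controls (log2 -0.53 ± 0.10 and -0.51 ± 0.11, adjusted p = 0.000957 and 0.00228). Atg4b, for the main protease of this kind, had a log2 fold change of 0.43 ± 0.14 with Aβ42 (adjusted p = 0.0202) with overlapping groups, and 0.11 with Aβ40. Atg3, Atg5, Atg10, Atg12 and Atg16l1 were not called in the 4 comparisons. Without microglia Aβ42 replicate 1, Atg3 was called lower with Aβ42 (-0.42 in place of -0.26, adjusted p = 0.00264) and Atg12 higher (0.36 in place of 0.28, adjusted p = 0.000579). Without astrocyte control replicate 2, Atg4c was called higher in astrocytes with each fibril type (0.81 and 0.47) and Atg12 with Aβ42 (0.45). Atg10 was thinly covered, with 6 to 32 counts in the Aβ40 microglia libraries.

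The direct comparison of the fibril types asked whether the members respond to the form of the peptide. In microglia 7 of 35 members (20.0%, against 20.3% of all tested genes and 11.3% called higher) were higher with Aβ42 than with Aβ40 fibrils and none was lower. They were Map1lc3a (2.48-fold, log2 1.31 ± 0.32, adjusted p = 0.0233), Tfeb (log2 0.94 ± 0.19, adjusted p = 0.0145), Sqstm1 (log2 0.92 ± 0.15, adjusted p = 0.00844), Uvrag (0.63), Atg101 (0.52), Gabarapl2 (0.48) and Gabarap (0.30). The Aβ42 and Aβ40 libraries did not overlap for Sqstm1, Tfeb, Atg101 and Gabarap, and they overlapped through Aβ42 replicate 1 for Map1lc3a, Uvrag and Gabarapl2. The median log2 difference of the members was 0.18, beside 0.01 for all genes, and Map1lc3a alone passed 2-fold (3.62% of all genes did).

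This count changed when single libraries were left out, as did the share of all genes called. Without Aβ42 replicate 1 it became 20 of 35 (16 higher and 4 lower, with 53.8% of all genes called), and all 7 earlier calls stayed. The added members that were higher with Aβ42 included Ulk1 (0.53), Atg2a (0.55), Atg9a (0.42) and Gabarapl1 (0.40), and the 4 that were lower were Mitf (-0.93), Rb1cc1 (-0.77), Optn (-0.54) and Atg13 (-0.26). The count was 1 without Aβ42 replicate 2 or 3 (1.11% and 0.905% of all genes called). It was 0, 1 and 0 without Aβ40 replicates 1, 2 and 3 (1.14%, 0.979% and 1.37%). When any 1 of the controls was left out it was 3 (9.57%, 14.6% and 11% for replicates 1, 2 and 3). Each of the 7 calls was lost in at least 3 of 16 alternatives. Depth differed between these groups, with 4104702, 4425805 and 2271834 counts in the Aβ40 libraries, and its part was not tested.

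In astrocytes no member was called between the fibril types, by edgeR or by DESeq2. Of 11690 genes in all, edgeR called 10 (0.0855%) and the Wald test of DESeq2 called 141 (1.21%). By edgeR 0 of 35 members had an unadjusted p-value under 0.05. The differences ranged from -0.19 to 0.34 on the log2 scale with standard errors of 0.10 to 0.38, so differences of that size were not detectable here, and the absence of calls does not show that the fibril types act alike.

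**Figure D4:**
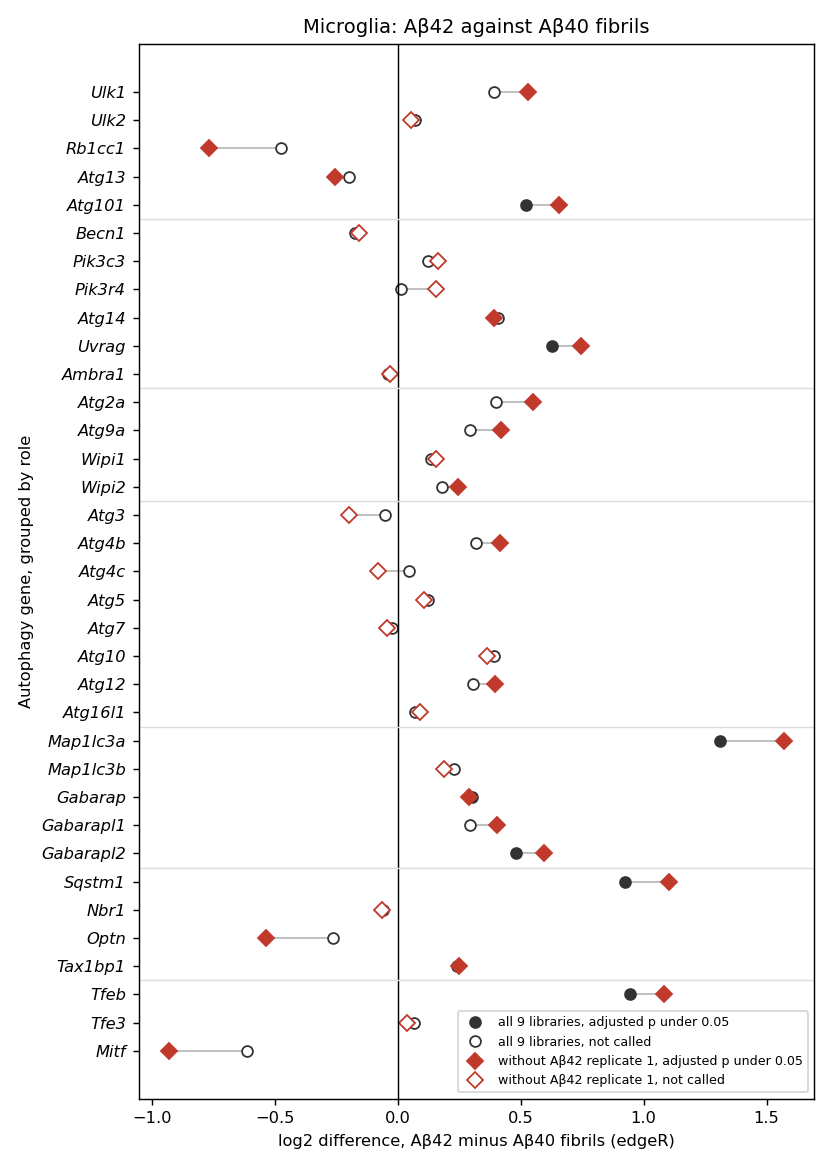
Log2 difference between Aβ42 and Aβ40 fibril-treated microglia (horizontal axis) for each autophagy gene (vertical axis, grouped by role), fitted with all 9 microglia libraries (circles) and without Aβ42 replicate 1 (diamonds), filled where the adjusted p-value was under 0.05. Most diamonds lie farther from 0 than the circles, and the filled ones number 20 against 7.

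The test of whether a response differs between the cell types used all 18 libraries, and its sign is that of the astrocyte response minus the microglia response. With Aβ42 fibrils the responses of 8 of 35 members differed (22.9%, against 37.3% of all 11581 genes tested), and with Aβ40 fibrils those of 12 (34.3%, against 32.5%). Of these, 7 (17.9% of all genes) and 12 (16.5%) had the higher response in astrocytes, and 1 (19.3%) and none the lower. Atg4c (1.34 ± 0.28 and 1.06 ± 0.29 on the log2 scale), Ulk2 (0.94 ± 0.20 and 1.11 ± 0.21), Atg2a (0.85 ± 0.28 and 1.19 ± 0.29), Pik3r4 (0.70 and 0.79), Atg7 (0.68 and 0.69), Tfe3 (0.51 and 0.56) and Nbr1 (0.50 and 0.41) differed with each fibril type. Sqstm1 was the single member called with the higher response in microglia (-0.87 ± 0.23 with Aβ42, adjusted p = 0.00555). The differences of the ATG8 genes with Aβ42 reached -1.21, and none of them was called. Tfeb (0.95), Pik3c3 (0.62), Atg14 (0.58), Map1lc3b (0.50) and Atg16l1 (0.50) differed with Aβ40. Optn, Wipi2 and Uvrag, which rose in both cell types with Aβ42, showed no called difference. Cell type cannot be told apart from the culture step or from the set of symbols counted, which differ with it.

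The calls of Ulk2, Pik3r4, Atg4c, Nbr1 and Tfe3 with each fibril type, of Sqstm1 with Aβ42 and of Atg2a with Aβ40 held under all 24 alternatives. The call of Atg16l1 was lost in 20. Without astrocyte control replicate 2 the count was 12 with each fibril type (3 of them higher in microglia with Aβ42, and 9 of the 12 earlier calls kept with Aβ40), and without microglia Aβ42 replicate 1 it was 9 and 14. Of all genes, 46.6% and 35.3% were called in the first of these fits and 42.2% and 35.6% in the second. The count with Aβ40 was 7 without astrocyte Aβ40 replicate 3, without microglia control replicate 3 or without microglia Aβ40 replicate 3 (27.6%, 27.3% and 28.5% of all genes).

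Between untreated control cultures, the cell types differed in the level of 19 of 35 members (54.3%, against 68.8% of all 11581 genes). In control astrocytes 5 members were higher than in control microglia (34.5% of all genes were) and 14 were lower (34.2% of all). The levels in this comparison are scaled across all 18 libraries. Wipi1, for a PI3P reader, was highest in astrocytes relative to microglia, at 101, 105 and 104 scaled CPM against 21.3, 22.4 and 23.3 (4.63-fold, log2 2.21 ± 0.11, adjusted p = 1.59e-12). Map1lc3a stood at 160, 46.7 and 149 against 44.9, 33.4 and 49.4 (2.78-fold, log2 1.48 ± 0.38, adjusted p = 0.00210), with astrocyte control replicate 2 within the microglia range. Ulk1 (0.84), Gabarapl1 (0.63) and Atg13 (0.36) were also higher in astrocytes.

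Members lower in astrocytes included all 3 MiT/TFE genes and 5 of the 8 conjugation genes. Atg7 stood at 24.3, 11.7 and 20.8 scaled CPM in control astrocytes against 63.6, 62.6 and 69.1 in control microglia (log2 -1.77 ± 0.18, adjusted p = 3.57e-08). Uvrag stood at 4.19, 8.53 and 7.15 against 21.3, 19.4 and 24.1 (log2 -1.67 ± 0.23, adjusted p = 2.04e-06). Mitf stood at 34.8, 51.9 and 28.4 against 99.6, 121 and 105 (log2 -1.52 ± 0.23, adjusted p = 8.10e-06). In these 3 genes every astrocyte library was below every microglia library. Atg4c (-1.48), Gabarap (-1.22), Tfeb (-1.15) and Tfe3 (-0.81) followed, and Pik3c3, Becn1, Atg16l1, Atg5, Atg3, Nbr1 and Optn were lower by 0.44 to 0.66 on the log2 scale. A difference of 2-fold or more was called for 8 members (43.8% of all genes). The call of Optn was lost in 9 of 12 alternatives, and those of Atg13, Atg3, Atg5 and Nbr1 in 1 each. Without astrocyte control replicate 2, 10 members were higher and 16 lower in astrocytes, all 19 earlier calls among them (72.6% of all genes called). With library totals in place of TMM, the median of all genes moved from 0.00 to 0.28 and the split became 13 higher and 10 lower (69.6% of all genes called). Gabarap and Map1lc3a, both ATG8 genes, thus differed between the cell types in opposite directions, and they did so under every scaling used.

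**Figure D5:**
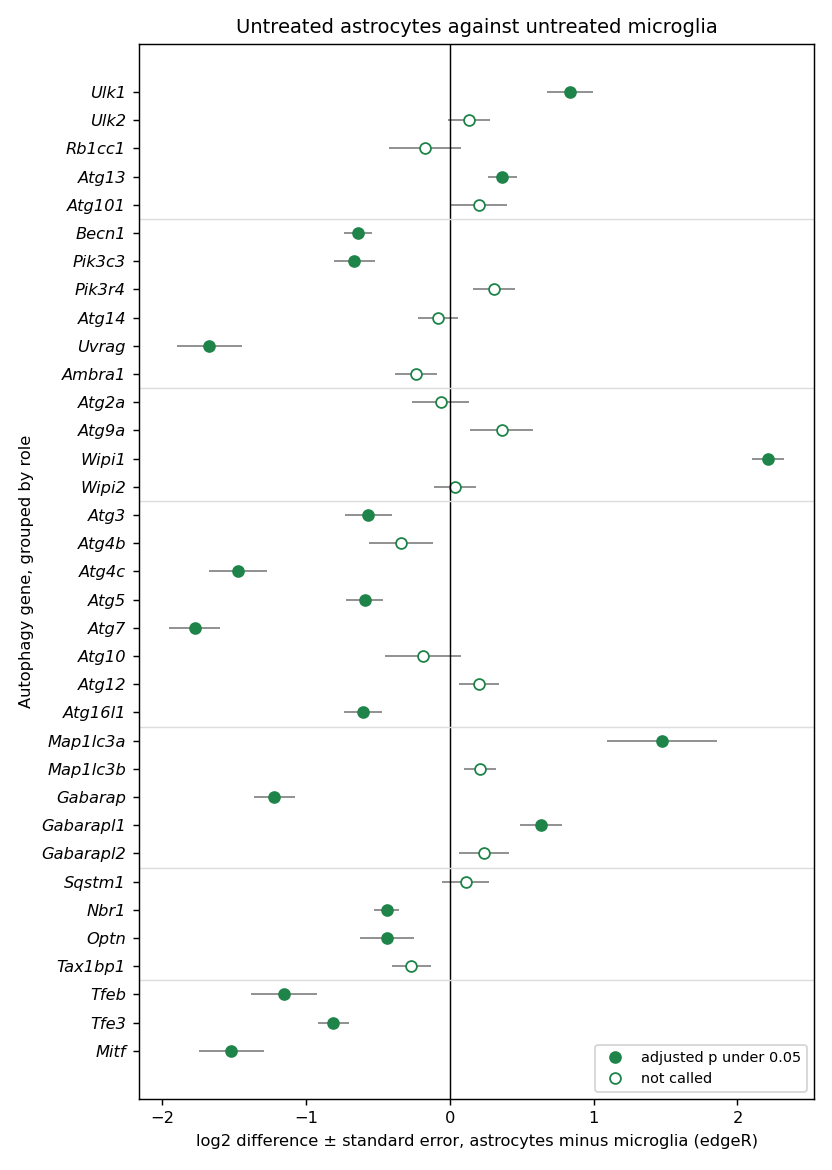
Log2 difference in level between untreated astrocytes and untreated microglia (horizontal axis, bars are ± SE of the fit, 3 libraries in each group) for each autophagy gene (vertical axis, grouped by role), filled where the adjusted p-value was under 0.05. Wipi1 (2.21) and Map1lc3a (1.48) lie farthest to the right and Atg7 (-1.77), Uvrag (-1.67) and Mitf (-1.52) farthest to the left, with all 3 MiT/TFE genes left of 0.

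Genes upstream and downstream of the members were counted in lists that do not contain them. Of all tested genes in microglia, 27.1% were called higher and 26.6% lower with Aβ42, and 19.6% and 21.4% with Aβ40. No list was tested against these shares, and some counts below lie near them. In microglia, of 13 tested genes for fusion of autophagosomes with lysosomes none rose and 8 fell with Aβ42 fibrils, and none rose and 6 fell with Aβ40. Vps18, for a core subunit of the tethering complexes HOPS and CORVET, fell most (log2 -1.31 and -1.74). Of 16 lysosomal genes of the TFEB network 2 rose and 8 fell with Aβ42, and 1 rose and 10 fell with Aβ40. Hexa, for a lysosomal enzyme of glycolipid breakdown, fell (log2 -1.60 and -1.79), and Atp6v0d2, for a subunit of the proton pump, rose (3.69 and 2.32). Of 24 genes of mTORC1 and its amino acid inputs 3 rose and 8 fell with Aβ42 and none rose and 10 fell with Aβ40, led by the sestrin gene Sesn1 (log2 -2.13 and -2.35) and the folliculin partner gene Fnip2 (-1.20 and -1.45). Of 14 other receptor and mitophagy genes 5 rose and 6 fell, and 1 rose and 7 fell, with Pink1, for the kinase that marks damaged mitochondria (log2 -2.29 and -2.74), and Ncoa4, for the receptor of ferritin (-1.15 and -1.16), lowest among those that fell by 2-fold or more with each fibril type. Of 10 AMPK and FoxO genes none rose and 4 fell, and 1 rose and 3 fell, and of 10 other core autophagy genes 4 rose and 2 fell, and none rose and 2 fell. Pink1 stood at 103 ± 5.33 scaled CPM (SD, n = 3) in control microglia, 19.5 ± 6.53 with Aβ42 and 15.1 ± 1.68 with Aβ40.

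In astrocytes the same lists were counted, with no test of the difference from microglia. Of all tested genes there, 37% were called with Aβ42 (16.5% higher) and 33.3% with Aβ40 (14.9% higher). No list was tested against these shares. With Aβ42 fibrils 3 of 13 fusion genes, 4 of 17 lysosomal genes and 1 of 10 AMPK and FoxO genes rose and none fell, and with Aβ40 the numbers that rose were 3, 2 and 1. Of 25 mTORC1 genes 6 rose and 2 fell with Aβ42, and 3 rose and 2 fell with Aβ40. The arginine sensor gene Castor1 rose (log2 2.08 and 1.76), from 3.95 ± 2.23 scaled CPM in control to 19.0 ± 2.28 and 15.2 ± 1.07, and Sesn3 fell (log2 -1.49 and -1.27). Of 16 other receptor and mitophagy genes 2 rose and 2 fell, and 1 rose and 1 fell, and of 11 other core genes 3 rose and 2 fell with each fibril type.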

How the data were processed

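RNA of 18 libraries was analysed, 3 for each of 6 groups. The authors aligned reads (STAR and the rn5 genome are named in the submitters' processing notes, with Salmon and DESeq2) and deposited raw gene counts, 1 whole number per symbol, not normalized. The counting program, annotation and use of strand are not given in the sources used here. Reads on no gene or on several, 26.0% to 34.2% of counted reads in astrocytes and 21.7% to 24.5% in microglia, were left out.

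From the deposited counts, edgeR 4.0.16 (R 4.3.3) fitted the 9 libraries of a cell type together, without covariates, after filterByExpr and TMM scaling, and tested contrasts by glmQLFTest with Benjamini-Hochberg adjustment over 11690 (astrocytes) or 10837 (microglia) genes. All 18 libraries were fitted together for differences between cell types (11581 genes). The procedure was tested on simulated data. Groups came from the submitters' labels. The members and all gene lists, motifs and alternatives were chosen with earlier results of these data known. Given in every library were members with a called change of 2-fold or more against control, the ATG8 and MiT/TFE genes, Sqstm1 and the members with the 3 smallest p-values among calls between fibril types. The others named are the extremes of a role group, members called in opposite directions, and further members listed by call, whose values were added for completeness after they were seen. Genes of other lists were named when called at 2-fold or more with each fibril type. Some genes of those lists are not reported here by name. Alternatives were DESeq2 1.42.0 (size factors and Wald test), scaling by library totals, testing all genes or only those with 10 or more counts per library, thresholds of 2-fold and 5-fold, fits limited to the groups being compared or blocked by replicate number, and leaving out each replicate. Listed genes not analysed here, as their symbols are not among those used, were Atg2b, Rubcn, Calcoco2, Retreg1, Epg5 and Deptor and, in microglia, Atg4a and Castor1. Library size sets the precision, and the lowest total was 2271834 counts.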

Additional observations from a re-analysis of the deposited data

Results flagged for a closer look

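The members below had a response to fibrils that differed between astrocytes and microglia, by the interaction test of edgeR over all 18 libraries. Values are the astrocyte response minus the microglia response on the log2 scale. With Aβ42 fibrils they were 1.34 for Atg4c, 0.94 for Ulk2, 0.85 for Atg2a, 0.70 for Pik3r4, 0.68 for Atg7, 0.51 for Tfe3, 0.50 for Nbr1 and -0.87 for Sqstm1. These 8 were 22.9% of the members, against 37.3% of all genes tested. For 6 of these 8 the fitted change was above 0 in astrocytes and below 0 in microglia. Picking members by a difference between the responses itself favours opposite signs, and no share over all genes was counted. Atg4c, for example, had log2 fold changes of 0.48 in astrocytes, which did not pass, and -0.86 in microglia.

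With Aβ40 fibrils the values were 1.19 for Atg2a, 1.11 for Ulk2, 1.06 for Atg4c, 0.95 for Tfeb, 0.79 for Pik3r4, 0.69 for Atg7, 0.62 for Pik3c3, 0.58 for Atg14, 0.56 for Tfe3, 0.50 for Map1lc3b, 0.50 for Atg16l1 and 0.41 for Nbr1. These 12 were 34.3% of the members, against 32.5% of all genes tested. For 9 of these 12 the fitted change was above 0 in astrocytes and below 0 in microglia, with the same limit on the signs. Both sets of responses share the control libraries of each cell type. Groups of 3 libraries were too small for a test of single libraries far from their group.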

How the results depend on the processing

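Leaving out 1 library at a time gave 4 to 16 called members for Aβ42 and 2 to 13 for Aβ40 fibrils against control in astrocytes, 8 to 20 and 8 to 16 in microglia, 0 to 20 between the fibril types in microglia, and 7 to 15 for Aβ40 responses that differ between cell types. In the same order, the shares of all genes called were 28.4% to 46.9% and 25% to 41.8% in astrocytes. They were 42.7% to 70.3% and 32.8% to 54% in microglia, 0.905% to 53.8% between the fibril types and 27.3% to 35.6% for the Aβ40 responses. With all libraries included, the counts against control at 2-fold or more were 1 and 1 in astrocytes and 2 and 2 in microglia, with 1 between the fibril types in microglia and 8 between the untreated cell types. At 5-fold or more all of these fibril comparisons had 0. For Aβ40 in astrocytes library totals gave 5 calls (32.9% of all genes) and a fit of the compared groups alone gave 3 (26.5%). For the fibril types in microglia a fit of the compared groups alone gave 0 (1.02% of all genes, and fewer libraries enter it). Deviations of replicates with the same number had correlations from -0.59 to 0.40 in astrocytes and from -0.21 to 0.24 in microglia. With 3 libraries a group, these values cannot show whether the numbers pair the libraries. At most 1 of 3 libraries correlated best with its own number. With the replicate number as a block, Aβ42 and Aβ40 had 5 and 4 calls against control in astrocytes and 12 and 10 in microglia, the fibril types in microglia 2, the differences in response between cell types 7 and 9, and the untreated cells 19. The shares of all genes called with the block were, in that order, 31.2%, 27.5%, 50.1%, 38.7%, 6.96%, 32.4%, 28.2% and 66%. Changes that were not called crossed 0 when 1 library was left out for Map1lc3b (-0.0572 to 0.195) and Gabarapl1 (-0.0149 to 0.199) with Aβ42 in astrocytes, Map1lc3a (-0.608 to 0.0206) and Map1lc3b (-0.116 to 0.132, and 0.014 with no filter) with Aβ40 in astrocytes, Gabarap with Aβ42 (-0.0053 to 0.0866), and Gabarapl2 (-0.126 to 0.0626), Tfe3 (-0.0201 to 0.0998) and Mitf (-0.0835 to 0.0587) with Aβ40 in microglia. No called member changed direction under any alternative. The cause of these shifts was not tested. With 3 libraries a group and totals as low as 2271834 counts, small changes of thinly covered genes such as Atg10 and Uvrag were least well measured.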
